A study of Danio rerio with 2 samples.

Results

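The circadian clock genes described here are per1a, per1b, per2, per3, cry1a, cry5, clocka, nr1d1, nr1d2a and nr1d2b, 10 of the 31571 annotated genes in a deposited table of 51544 features. They were taken by symbol, with a name lacking its final copy letter accepted for both copies. That accepted 12 rows. The rows shared by copies were told apart by gene span, and the other 2 rows proved to be cry1b and clockb, which are given with the wider clock lists. Of the 10 genes, 8 had a mean of at least 1 CPM, the read count scaled to a common library total. per1a and nr1d1 did not.

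Messenger RNA was measured in zebrafish heads of the AB strain, taken 33 hours after fertilisation and cut ahead of the otic vesicle, from which the inner ear forms. 1 library came from rbm24a mutant embryos, which lack 8 bp of the gene's first exon after TALEN cutting, and 1 from wildtype embryos of the same strain and age. Rbm24a binds RNA, and by its title the series is about translation of lens crystallins. The protocol in the labels mentions more samples, and 1 library per group was analysed here. No difference below therefore has a replicate check and no p-value was computed. Printed ranges are 95% exact intervals of counting error only. The labels used here give neither the clock time at which heads were collected nor the light schedule of the embryos. A difference of daily phase or light exposure between the collections and an effect of genotype cannot be told apart.

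The clock of vertebrate cells is a loop of transcription and repression. CLOCK and BMAL proteins bind E-box sequences and switch on the period and cryptochrome genes, whose proteins then inhibit CLOCK and BMAL. A second loop runs through nuclear receptors: REV-ERB proteins, made by nr1d genes, repress bmal genes, and ROR proteins activate them. In zebrafish most tissues respond to light directly, and per2, cry1a and the photolyase gene cry5 are switched on by light. In light-dark cycles the E-box genes per1b, per3 and nr1d1 peak around dawn, and clock and bmal genes around dusk.

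The mutant library was assigned 16667612 reads and the wildtype library 14148577. rbm24a itself (ENSDARG00000102995) had 121 reads in mutant heads and 224 in wildtype heads, 2.18-fold lower (interval 1.74 to 2.74), and a deletion of this size can leave the transcript in place. All 8 head brain markers were detected, at a summed 449 CPM in mutant heads and 381 CPM in wildtype heads, and trunk and tail markers had 1 read in all in mutant heads and 3 in wildtype heads. Other tissues differed between the libraries, where 2-fold was passed upwards by 2.22% and downwards by 2.82% of all features tested. 9 of 10 lens markers were lower by at least 2-fold in mutant heads (summed 209.5 CPM in mutant heads and 1592 CPM in wildtype heads), as were 6 of 6 erythrocyte markers that were matched (summed 108 CPM in mutant heads and 785 CPM in wildtype heads). The 6 heart markers summed to 17.0 CPM in mutant heads and 1.34 CPM in wildtype heads. hand2, the largest part in mutant heads, had 119 reads there and 7 in wildtype heads. myl7 and tnnt2a were at 0 reads in wildtype heads and myh6 at 0 in mutant heads. Whether the cut fell at the same place in both libraries was not tested. The part of these tissue differences in the clock gene values was not tested. In bulk heads, fewer cells of a type and less RNA per cell cannot be told apart.

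per3 had the highest ratio of the clock genes that averaged at least 1 CPM. Its product is a PERIOD protein, part of the repressor complex. per3 (ENSDARG00000010519) had 854 reads (51.2 CPM) in mutant heads and 332 reads (23.5 CPM) in wildtype heads. Its level was 2.18-fold higher in mutant heads (interval 1.92 to 2.49). On the scale used for counting, a log2 ratio with a pseudocount of 1 CPM, per3 was at 1.09 and ranked 327 from the top of 18094 features that averaged at least 1 CPM. Of all those features, 4.15% lay at least as far from 0 in either direction. With a pseudocount of 5 CPM its log2 ratio was 0.98, short of 2-fold.

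per1b and per2 did not share this difference. per1b (ENSDARG00000012499), a copy of the E-box-driven period1 gene, had 384 reads (23.0 CPM) in mutant heads and 409 reads (28.9 CPM) in wildtype heads. It was 1.25-fold lower in mutant heads (interval 1.09 to 1.45). per2 (ENSDARG00000034503), the light-driven period gene, had 333 reads (20.0 CPM) in mutant heads and 308 reads (21.8 CPM) in wildtype heads, a level 1.09-fold lower with an interval of 0.930 to 1.28 that includes equal levels. per1a (ENSDARG00000056885) had 4 reads in each library, too few to set a level apart (ratio of mutant over wildtype 0.849, interval 0.158 to 4.56). The period genes thus lay on both sides of equality, with per3 as the 1 period gene above it.

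Read shares within a family need no scaling by library size. They add up to a whole, so a higher share of any copy lowers those of the rest. per3 held 54.2% of the reads of the 4 period genes in mutant heads (interval 51.7 to 56.7) and 31.5% in wildtype heads (interval 28.7 to 34.4). per1b held 24.4% in mutant heads and 38.8% in wildtype heads, and per2 held 21.1% in mutant heads and 29.2% in wildtype heads. By the lengths that the authors' RPKM values imply, per3 is the longest of them at 12.2 kb, so its share is smaller per implied length. Implied lengths need not be transcript lengths, so shares of transcripts were not measured. By deposited RPKM, which divides reads by that length as well as by the library total, per3 made up 42.3% of the family in mutant heads and 22.0% in wildtype heads. There were 2.22 per3 reads for each per1b read in mutant heads and 0.812 in wildtype heads.

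**Figure D1:**
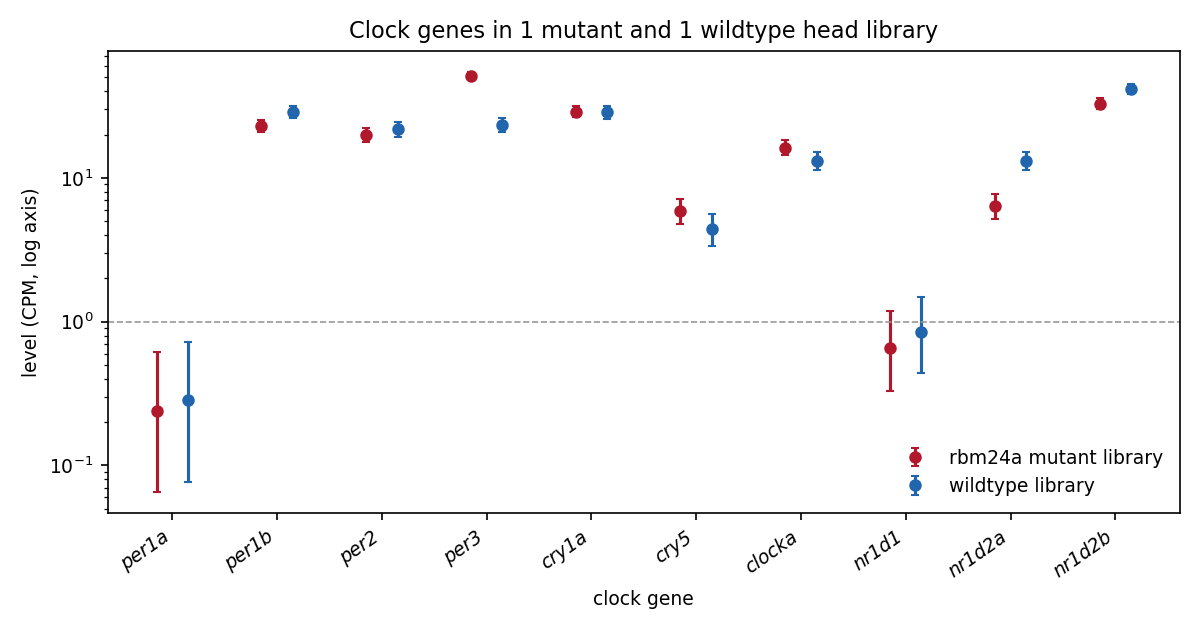
Level of each of the 10 clock genes in CPM (vertical log axis) in mutant heads (red, left of each pair) and wildtype heads (blue, right). Points are single libraries, bars 95% exact Poisson intervals of counting error, and the dashed line marks 1 CPM. per3 is higher in mutant heads (51.2 CPM, against 23.5 CPM in wildtype heads), nr1d2a is lower (6.36 CPM, against 13.1 CPM in wildtype heads), and per1a and nr1d1 lie below 1 CPM in both.

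Of the REV-ERB genes of the second loop, nr1d2a and nr1d2b were lower in mutant heads, by unequal amounts. nr1d2a (ENSDARG00000003820), 1 of the 2 zebrafish copies of REV-ERB beta, had 106 reads (6.36 CPM) in mutant heads and 186 reads (13.1 CPM) in wildtype heads. It was 2.07-fold lower in mutant heads (interval 1.62 to 2.65). With the pseudocount its log2 ratio was -0.94, short of the 2-fold limit of -1. Of all features tested, 5.74% lay at least that far from 0. With a pseudocount of 0.1 CPM it passed the limit at -1.04. The copy nr1d2b (ENSDARG00000009594) had 548 reads (32.9 CPM) in mutant heads and 588 reads (41.6 CPM) in wildtype heads, 1.26-fold lower (interval 1.12 to 1.42). nr1d1 (ENSDARG00000033160), the REV-ERB alpha gene, was barely detected, with 11 reads (0.660 CPM) in mutant heads and 12 reads (0.848 CPM) in wildtype heads (ratio 0.778, interval 0.311 to 1.93).

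nr1d2b was the main REV-ERB transcript in both libraries. It held 78.8% of the reads of 5 nr1d genes in mutant heads (interval 75.6 to 81.8) and 71.5% in wildtype heads (interval 68.3 to 74.6). nr1d2a held 15.3% in mutant heads (interval 12.7 to 18.1) and 22.6% in wildtype heads (interval 19.8 to 25.6). per3 and nr1d2a are both in the dawn list described below, and they lay on opposite sides of equality. Their daily phase was not measured here. They have the highest and lowest log2 ratios of the 8 members tested, so this pair gives the widest contrast by choice. For each nr1d2a read there were 8.06 per3 reads in mutant heads and 1.78 in wildtype heads.

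**Figure D2:**
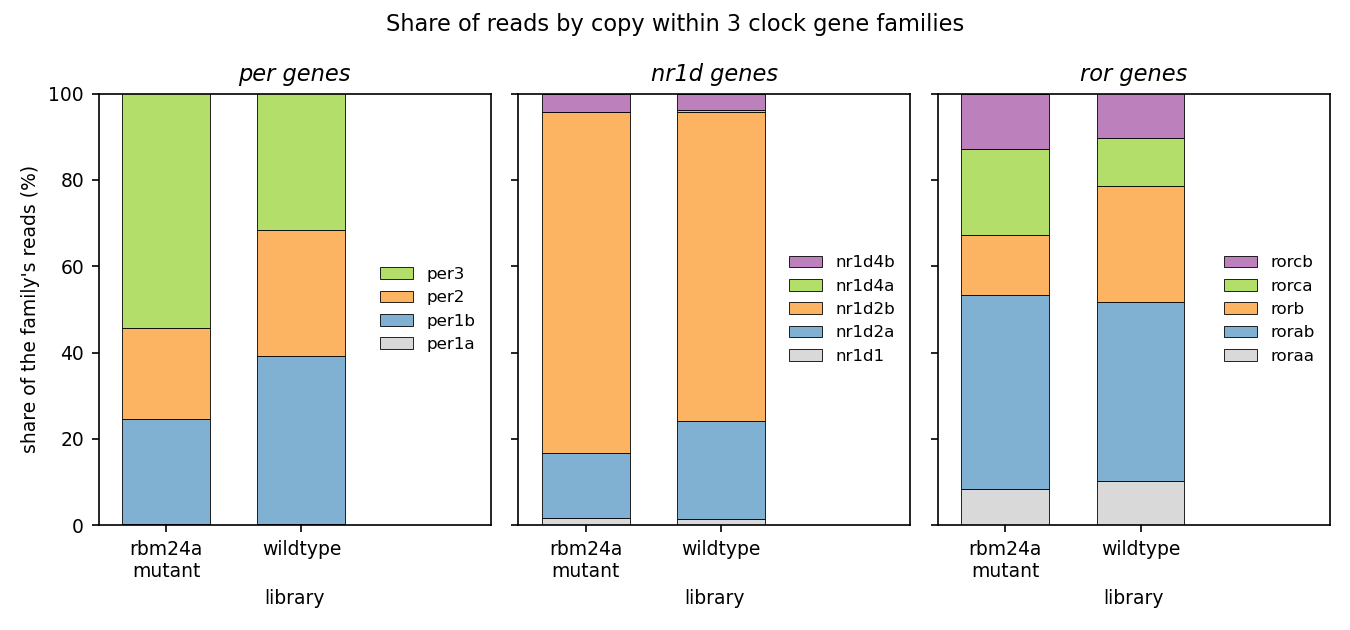
Share of the reads of each family (vertical axis, %) held by each copy, in mutant heads (left bar) and wildtype heads (right bar) of each panel. per3 takes 54.2% of the period reads in mutant heads and 31.5% in wildtype heads, nr1d2b is the main nr1d gene in both, and rorb takes 13.8% of the ror reads in mutant heads and 27.0% in wildtype heads. Reads are not corrected for length here.

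cry1a, cry5 and clocka lay within 1.5-fold of equality. cry1a (ENSDARG00000045768), a light-induced cryptochrome that represses CLOCK and BMAL in zebrafish, had 483 reads (29.0 CPM) in mutant heads and 405 reads (28.6 CPM) in wildtype heads. Its ratio was 1.01 (interval 0.885 to 1.16). cry5 (ENSDARG00000019498), the 6-4 photolyase, which repairs ultraviolet damage in DNA, had 98 reads (5.88 CPM) in mutant heads and 62 reads (4.38 CPM) in wildtype heads. Its ratio of 1.34 had an interval of 0.966 to 1.88, which includes equal levels at this depth. clocka (ENSDARG00000011703), which encodes a CLOCK protein, had 270 reads (16.2 CPM) in mutant heads and 187 reads (13.2 CPM) in wildtype heads, 1.23-fold higher in mutant heads (interval 1.01 to 1.48).

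Of the 8 members with a mean of at least 1 CPM, 1 (per3) was higher by at least 2-fold and 0 were lower. Among all 18094 such features, 2.22% were higher and 2.82% lower by that rule, so 1 of 8 is too few to set the clock genes apart. At 1.5-fold, 1 member was higher (per3) and 1 lower (nr1d2a), beside 6.95% of all features higher and 7.88% lower. The median log2 ratio of the 8 was -0.05, with 4 above 0 and 4 below, and the median of all features was -0.0013. Summed over the 10 genes the level was 185 CPM in mutant heads and 176 CPM in wildtype heads. Without per3, taken out after its value was seen, the sum was 134 CPM in mutant heads and 153 CPM in wildtype heads, 1.14-fold lower (interval 1.07 to 1.21).

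**Figure D3:**
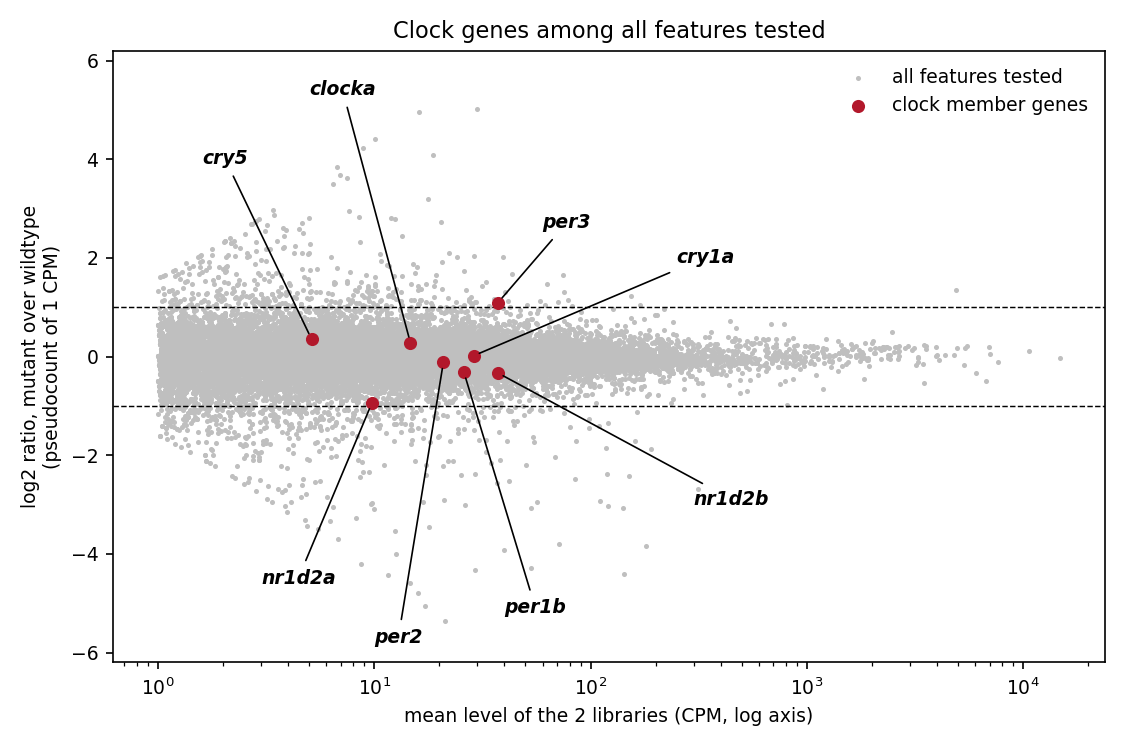
Log2 ratio of mutant over wildtype with a pseudocount of 1 CPM (vertical axis) against the mean level of both libraries in CPM (horizontal log axis) for all 18094 features tested (grey) and the 8 clock members among them (red). Dashed lines mark 2-fold. per3 lies just above the upper line at 1.09, nr1d2a just inside the lower line at -0.94, and the other 6 lie between -0.33 and 0.35.

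The order of the members by level was compared on deposited RPKM, which divides by the implied length. That length is not always a transcript length: for nr1d2b it is 10.1 kb, longer than the gene's span of 7315 bp. The order between genes therefore depends on this divisor. In mutant heads cry1a (4.27 RPKM), per3 (4.21), per1b (3.40) and nr1d2b (3.26) were highest. The intervals of cry1a and per3 overlapped, as did those of per1b and nr1d2b. In wildtype heads per1b (4.27 RPKM), cry1a (4.22) and nr1d2b (4.13) were highest, with overlapping intervals. per3 moved most in this order: it was the second in mutant heads at 4.21 RPKM (interval 3.93 to 4.50) and the fifth in wildtype heads at 1.93 RPKM (interval 1.73 to 2.15), where per2 lay above it (2.53 RPKM, interval 2.26 to 2.83) and the interval of cry5, its lower neighbour, overlapped its own. cry5 had 2.49 RPKM in mutant heads (interval 2.02 to 3.03) and 1.85 RPKM in wildtype heads (interval 1.42 to 2.37). At the low end nr1d2a had 0.59 RPKM in mutant heads and 1.22 RPKM in wildtype heads, where its interval overlapped that of clocka (1.12 RPKM). nr1d1 had 0.16 RPKM in mutant heads and 0.21 RPKM in wildtype heads. per1a was the lowest in both, with 0.03 RPKM in mutant heads and 0.04 RPKM in wildtype heads.

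The positive arm of the loop, the transcription factors that drive the E-box genes, held no gene past 2-fold. Of all features tested, 5.05% passed it in either direction. Of 6 measured genes 4 lay above a log2 ratio of 0 and 2 below, with a median of 0.06, and bmal1a, 1 of the 2, changed sides with median-of-ratios scaling. bmal2, with the highest level in CPM of the list, had 1483 reads (89.0 CPM) in mutant heads and 1557 reads (110 CPM) in wildtype heads (1.24-fold lower, interval 1.15 to 1.33). bmal1b had 629 reads (37.7 CPM) in mutant heads and 397 reads (28.1 CPM) in wildtype heads (1.34-fold higher, interval 1.18 to 1.53). bmal1a, also a BMAL1 copy, had a ratio of 0.988 (interval 0.848 to 1.15), and clockb, the CLOCK copy whose row the symbol rule also accepted, 1.08 (interval 0.924 to 1.27). Summed over the list, the level was 194 CPM in mutant heads and 201 CPM in wildtype heads.

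Among repressors, per3 was the 1 gene past 2-fold of 12 with a mean of at least 1 CPM, beside 5.05% of all features in either direction. 5 lay above 0 and 7 below, with a median of -0.03, and cry2, 1 of the 7, changed sides with median-of-ratios scaling. The cryptochrome with the most reads was cry3a, with 2414 reads (145 CPM) in mutant heads and 1857 reads (131 CPM) in wildtype heads, a ratio of 1.1 (interval 1.04 to 1.17). cry1b, the sister copy of cry1a, had 89 reads in mutant heads and 105 in wildtype heads, 1.39-fold lower (interval 1.04 to 1.86). cry4, placed in this list by its family name, was 1.44-fold higher (interval 1.23 to 1.69). Whether cry4 represses was not tested, and it counts among the 5 above 0. bhlhe40, the E-box repressor DEC1, was 1.36-fold higher (interval 1.25 to 1.48). cry3a, cry1b, cry4 and bhlhe40, and bmal1a and clockb above, were named after their values were seen.

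In the nuclear receptor loop rorb was the 1 gene past 2-fold of 8 with a mean of at least 1 CPM, beside 5.05% of all features in either direction. rorb, a ROR gene known from the mammalian retina and brain, had 199 reads (11.9 CPM) in mutant heads and 354 reads (25.02 CPM) in wildtype heads. It was 2.1-fold lower in mutant heads (interval 1.76 to 2.51), with a log2 ratio of -1.01. It fell short of 2-fold at -0.98 with median-of-ratios scaling and at -0.83 with a pseudocount of 5 CPM. Of 6 matched retina markers, 1 was lower by at least 2-fold (atoh7, 3.49-fold, interval 2.92 to 4.19), and their sum was 333 CPM in mutant heads and 356 CPM in wildtype heads. None of the 6 was at 0 reads, and their part in the rorb value was not tested. rorca, named after its value was seen, had 289 reads in mutant heads and 145 in wildtype heads, 1.69-fold higher (interval 1.38 to 2.08). There were 1.45 rorca reads for each rorb read in mutant heads and 0.410 in wildtype heads. The implied length of rorca is 6.33 kb and that of rorb 1.59 kb, and per implied length rorb was the higher of the pair in both libraries. By CPM rorb was the lower in mutant heads (11.9 CPM, against 17.3 CPM for rorca). Its place there thus rests on the implied lengths, which need not be transcript lengths. By deposited RPKM rorb had 7.49 in mutant heads and 15.7 in wildtype heads, and rorca 2.74 in mutant heads and 1.62 in wildtype heads. The list had 3 genes above 0 and 5 below, and a median log2 ratio of -0.27.

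The PAR bZIP factors and their competitor nfil3 regulate genes through D-box elements. None of 8 with a mean of at least 1 CPM passed 2-fold, beside 5.05% of all features in either direction. 4 lay above 0 and 4 below, with a median of 0.12, and nfil3 changed sides with median-of-ratios scaling. The median was -0.01 with no filter on low values, above a mean of 5 CPM and with deposited RPKM. With a pseudocount of 0.1 CPM, dbpa passed 2-fold at -1.10, against -0.68 as counted here. nfil3-5 had 1606 reads (96.4 CPM) in mutant heads and 1681 reads (119 CPM) in wildtype heads (1.23-fold lower, interval 1.15 to 1.32). tefa, a PAR factor that is also light-induced in zebrafish, had 92.4 CPM in mutant heads and 94.7 CPM in wildtype heads (ratio 0.976, interval 0.906 to 1.05). Its copy tefb, named after its value was seen, was 1.37-fold higher (interval 1.21 to 1.56).

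Modifiers of period and cryptochrome proteins (kinase and ubiquitin ligase genes, usp2a and usp2b) had 0 of 12 measured genes past 2-fold. Of all features, 5.05% passed it in either direction, so 0 of 12 does not set the list apart. 3 lay above 0 and 9 below, with a median of -0.15, beside 50.2% of all features below 0. fbxl3b, 1 of the 9, changed sides with median-of-ratios scaling. csnk1da, a casein kinase 1 delta gene, had 2811 reads (169 CPM) in mutant heads and 2602 reads (184 CPM) in wildtype heads (1.09-fold lower, interval 1.03 to 1.15). gsk3ab, a glycogen synthase kinase 3 gene, had 117 CPM in mutant heads and 136 CPM in wildtype heads (1.16-fold lower, interval 1.09 to 1.24). The genes farthest from 0, named after their values were seen, were gsk3bb, with 153 reads in mutant heads and 63 in wildtype heads (2.06-fold higher, interval 1.53 to 2.81, log2 ratio 0.90, and 1.03 with a pseudocount of 0.1 CPM), and fbxl3a, an F-box gene for cryptochrome turnover, 1.63-fold lower (interval 1.34 to 1.99).

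**Figure D4:**
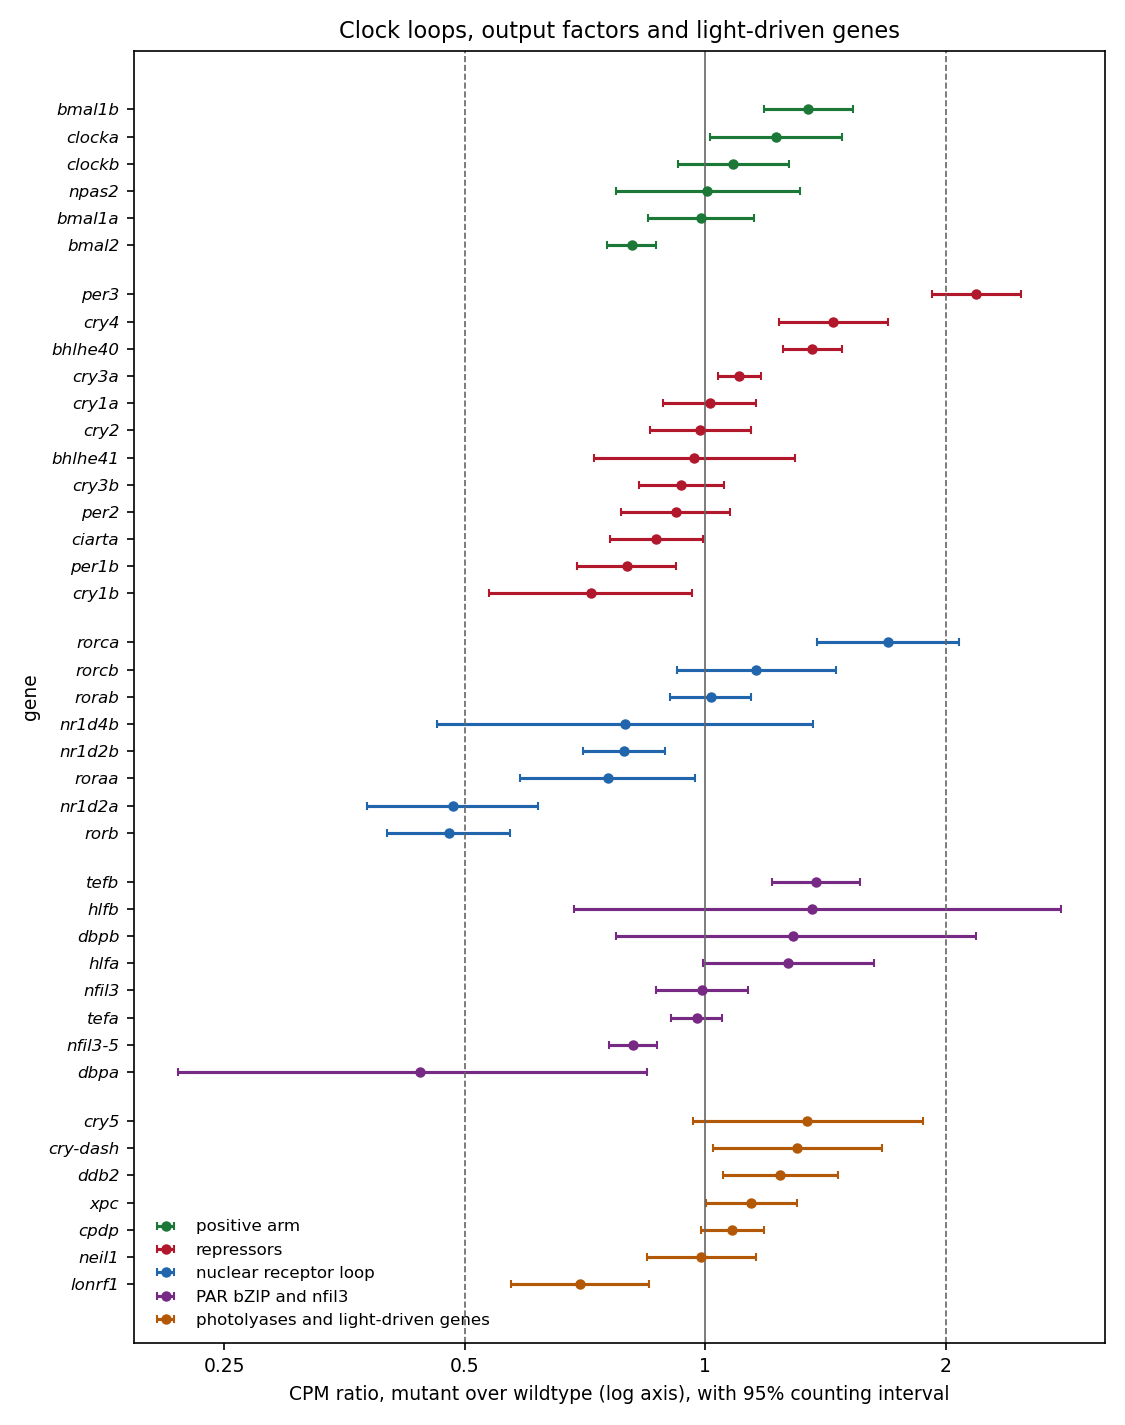
Ratio of CPM, mutant over wildtype (horizontal log axis), for genes with a mean of at least 1 CPM in 5 clock lists (colours: positive arm, repressors, nuclear receptor loop, PAR bZIP factors with nfil3, and light-driven genes with photolyases), each gene drawn once in the first list that holds it. Bars are 95% exact intervals of counting error, the solid line is equality and dashed lines are 2-fold. per3 lies right of the upper line at 2.18, rorb and nr1d2a lie left of the lower line at 0.477 and 0.484, as does dbpa at 0.439 with few reads (15 in mutant heads, 29 in wildtype heads).

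Phase and light lists were set side by side as a description of sampling time. In the dawn list per3 was above a log2 ratio of 0 and the other 5 genes with a mean of at least 1 CPM were below. The list median was -0.27, and 50.2% of all features tested lay below 0. per3 was the 1 dawn gene past 2-fold and 0 dusk genes passed it, beside 5.05% of all features in either direction. nr1d4b, 1 of the 5, had an interval that includes equal levels (ratio 0.794, interval 0.462 to 1.36). All dawn genes are also in the repressor or nuclear receptor lists above, so they are not a separate set. With per3 the summed dawn level was 143 CPM in mutant heads and 141 CPM in wildtype heads. Without it, a choice made after its value was seen, the sum was 91.6 CPM in mutant heads and 118 CPM in wildtype heads, 1.29-fold lower (interval 1.20 to 1.38). Dusk genes were split, 3 above and 3 below 0 (bmal1a changed sides as above), with a median of 0.05 and a sum of 283 CPM in mutant heads and 312 CPM in wildtype heads (1.1-fold lower, interval 1.06 to 1.15). The dusk list is the positive arm without npas2 and with nfil3-5. Without per3 both phase lists were lower in sum in mutant heads. The dusk sum is weighted to bmal2 and nfil3-5, both below 0, with 1557 and 1681 of 4418 dusk reads in wildtype heads. clocka, clockb and bmal1b were the dusk genes above 0, so the lower sum does not hold for the dusk genes alike. Dawn reads per dusk read were 0.505 in mutant heads and 0.453 in wildtype heads with per3. Without it they were 0.324 in mutant heads and 0.378 in wildtype heads, so leaving per3 out changed which library had the higher ratio. Leaving out other genes of either list was not tried.

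Summed, light-driven genes and photolyases were near equality. Of 10 matched genes 0 passed 2-fold, beside 5.05% of all features in either direction, so 0 does not set them apart. 6 lay above 0 and 4 below, with neil1 changing sides under median-of-ratios scaling, and the median log2 ratio was 0.06. Their sum was 308 CPM in mutant heads and 300.2 CPM in wildtype heads, a ratio of 1.03 (interval 0.986 to 1.07). cpdp, the photolyase for pyrimidine dimers, had 1071 reads (64.3 CPM) in mutant heads and 841 reads (59.4 CPM) in wildtype heads (ratio 1.08, interval 0.987 to 1.18). The DNA repair genes ddb2 and xpc, named after their values were seen, had ratios of 1.24 (interval 1.05 to 1.46) and 1.14 (interval 1.002 to 1.3), and lonrf1, likewise, was 1.43-fold lower (interval 1.17 to 1.75). The authors' deposited table of differing genes lists 37, of which 0 belong to the clock lists, beside 18094 features tested here. Its genes start at 21.6 FPKM in wildtype heads in the authors' deposited table. The highest of the 10 clock genes had 4.27 RPKM. In the wider lists csnk1da had 29.55 RPKM in wildtype heads, csnk1db 23.86, wee1 21.98 and bhlhe40 21.65, above that start. Why no clock gene is listed was not tested.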

How the data were processed

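Libraries were read as 100 bp pairs, per the labels' protocols. The submitters' processing notes list HISAT2 2.0.1, HTSeq 0.6.1, cutadapt, bcl2fastq 2.17.1.14, DESeq2 and build GRCz11. What each tool did, the annotation release and the strand setting were not stated, so antisense and overlapping genes may share reads. The deposited table gives raw read counts, without normalisation, and the authors' RPKM per feature. Its length column resembles the genomic span, but the RPKM values imply another length per feature, equal in both libraries within 0.466% over 7634 features checked. For some genes, such as nr1d2b (10.1 kb implied, span 7315 bp), the implied length is longer than the span. It is thus not always a transcript length. The authors' deposited table of their comparison adds FPKM, a signal of counts divided by size factors, p-values, a ratio and the log2 of that ratio. That table served only to see which genes it lists. 0 columns came from other samples.

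Counts were scaled to CPM by the sum of all features with Python 3.11.15, pandas 2.3.3 and SciPy 1.17.1. Higher or lower means a log2((mutant CPM + 1)/(wildtype CPM + 1)) of at least 1 or at most -1 with a mean of at least 1 CPM. Folds of single genes carry no pseudocount, and their intervals are 95% Clopper-Pearson intervals. PCR reads are not independent molecules, so intervals cover counting error only. With 1 library per group no test was possible. Alternatives were TMM factors (edgeR 4.0.16, scaling only), median-of-ratios factors, annotated genes only, other pseudocounts and filters, deposited RPKM and a 1.5-fold limit. The steps were tested on simulated data.

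Symbols came from a table of Ensembl IDs. Of 135 listed genes 123 were matched, 39 of them with the span of the RefSeq table of assembly GRCz12tu. Near-identical copies may share reads. The members and lists were chosen with earlier results of these data known. Named genes are all members, every gene of a clock list past 2-fold, or where none was, the 2 with the highest mean CPM. Others are marked in the text or named for how they changed under an alternative. dbpa, nr1d4b and single tissue markers such as atoh7 were also named after their values were seen. The planned order of levels per coding length and the planned promoter search needed sequences that were not used here. Levels were ordered by deposited RPKM instead.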

Additional observations from a re-analysis of the deposited data

How the results depend on the processing

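No paired analysis was possible because mutant and wildtype heads gave 1 library each, which also means that none could be left out. Over the alternatives run, the log2 ratio of per3 lay between 0.98 and 1.13 and that of nr1d2a between -1.04 and -0.68, and none of the 8 members turned its direction. The count of members higher by 2-fold was 0 with a pseudocount of 5 CPM. The count of members lower was 1 (nr1d2a) with a pseudocount of 0.1 CPM and 1 with a 1.5-fold limit. All features higher and lower numbered 402 and 511 of 18094 as reported. Of the same 18094 they numbered 672 and 830 with a pseudocount of 0.1 CPM and 97 and 164 with a pseudocount of 5 CPM. At 1.5-fold they numbered 1258 and 1425 of 18094. Other filters changed the features tested. Above a mean of 5 CPM the counts were 171 and 243 of 12613. With deposited RPKM they were 4166 and 5583 of 32258, where 1 of 9 members was higher and 0 were lower. The 2 alternatives that give a summed fold (TMM and median-of-ratios scaling) moved those of the clock lists by at most 0.027, within their counting intervals. List medians have no counting interval. That of the PAR bZIP list lay between -0.01 and 0.16, below 0 with no filter, above a mean of 5 CPM and with deposited RPKM. That of the repressors was 0.0001 with median-of-ratios scaling, and that of the non-visual photoreceptors, at -0.0011, lay between -0.0019 and 0.34. The cell cycle median lay between 0.19 and 0.42, and the medians of the other clock lists kept their sign. A pseudocount of 0.1 CPM took dbpa (-1.10), gsk3bb (1.03), parapinopsinb (-1.64) and tph1a (-1.13) past 2-fold, and deposited RPKM took parapinopsinb (-1.19) and tph1a (-1.05) past it. rorb lost its call with a pseudocount of 5 CPM and with median-of-ratios scaling. Above a mean of 5 CPM no non-visual photoreceptor gene was left, so that list has no such value. The scalings shifted all ratios by at most 0.03 on the log2 scale, which turned the sign only of genes whose log2 ratio was nearer to 0 than that (bmal1a, cry2, nfil3, fbxl3b, neil1, opn4b). Depth limits per1a and nr1d1, whose reads leave ratios from well below to well above 1.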

Other observations

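Opsin and pineal genes were measured at low levels, while wee1, described last, had more CPM than any of the 10 clock genes. Opsins that sense light outside vision had 13 matched genes of 15, and 3 reached a mean of 1 CPM. Of these 0 passed 2-fold, beside 5.05% of all features tested. opn4xb, a melanopsin gene, had 41 reads in mutant heads and 26 in wildtype heads (ratio 1.34, interval 0.799 to 2.28). parapinopsinb, an opsin of the parapinopsin group known from the pineal, had 11 reads in mutant heads and 32 in wildtype heads, 3.43-fold lower (interval 1.68 to 7.54), and its log2 ratio was -0.97 with the pseudocount of 1 CPM, -1.64 with 0.1 CPM and -1.19 on deposited RPKM.

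The pineal gland holds a clock and makes melatonin at night. Of 5 pineal genes with a mean of at least 1 CPM, 0 passed 2-fold, beside 5.05% of all features tested. 2 lay above 0 and 3 below. bsx, a homeobox gene of the pineal and hypothalamus, had 125 reads in mutant heads and 118 in wildtype heads (1.11-fold lower by CPM, interval 0.857 to 1.44), and asmt2, a melatonin synthesis gene, 84 reads in mutant heads and 68 in wildtype heads (ratio 1.05, interval 0.753 to 1.47). aanat2, the pineal enzyme whose transcript is rhythmic, had 33 reads in mutant heads and 20 in wildtype heads (ratio 1.40, interval 0.780 to 2.58), and tph1a, a serotonin synthesis gene, 18 reads in mutant heads and 35 in wildtype heads (2.29-fold lower, interval 1.26 to 4.30, log2 ratio -0.74, which passed 2-fold at -1.13 with a pseudocount of 0.1 CPM and at -1.05 on deposited RPKM). Both were named after their values were seen. Of cell cycle genes linked to the clock, wee1, a kinase that holds cells before mitosis, had 86.7 CPM in mutant heads and 75.6 CPM in wildtype heads, a ratio of 1.15 (interval 1.06 to 1.24), and cdkn1a, the p21 inhibitor, had 71 reads in mutant heads and 38 in wildtype heads, 1.59-fold higher (interval 1.06 to 2.42).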
